A study of Mus musculus with 15 samples.

Results

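The p53 pathway was examined through 9 genes in 2-cell mouse embryos, namely Trp53, which encodes p53, its inhibitors Mdm2 and Mdm4, and its target genes Cdkn1a, Gadd45a, Ccng1, Bax, Bbc3 and Sesn2. They were taken by gene name from a table of 53023 genes, and all 9 were found. RNA came from pools of 5 embryos of the ICR strain, fertilised in vitro and lysed at 32 hours after insemination. The study asked what disrupting filamentous actin in the nucleus does to the transcriptome, by injecting mRNA for an actin mutant, R62D, fused to HA and to a signal for nuclear import (NLS). Injection was done at 2 hours after insemination. The 6 libraries form 3 pairs of 2 pools each, called C, B and A here, and the labels contradict each other on what each pair received. Pair C is annotated as injected with actinR62D-HA-NLS and titled as the non-injected control. Pair B is annotated as injected with actinWT-HA-NLS, the wild-type form, and titled R62D. Pair A is annotated as non-injected and titled Wt. No reading was chosen, so the comparisons C against B, C against A and B against A are between pairs and do not say which construct goes with a difference. Another 9 libraries of the series were not analysed here.

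The p53 protein is a transcription factor that is kept scarce in unstressed cells by Mdm2, a ubiquitin ligase that marks it for degradation, and held inactive by Mdm4, a relative of Mdm2 that binds its activation domain. DNA damage and other stress release p53 from both, and it then switches on genes that stop the cell cycle, repair DNA or start apoptosis. Mdm2 is itself a p53 target, which closes a feedback loop. Much of this control acts on the protein, so mRNA levels of Trp53 do not measure p53 activity. Embryos of the 2-cell stage hold RNA stored by the oocyte together with the first transcripts of their own genome.

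Target genes of p53 carry a recognised DNA element, a pair of 10-base half-sites that are each their own reverse complement, so that a search of one strand covers both. This p53 consensus was searched, with no spacer between half-sites and with the C and G of each core required, in RefSeq promoter windows of 300 bases (250 before the start site and 50 after it, build GRCm38.p6). A fit of at least 17 of 20 bases was found in 453 of 32851 windows (1.38%), and of at least 19 in 22 windows (0.067%). The 9 genes have 13 windows, of which 4 fit at 17 bases or more. These 4 stretches are shown because they are the sequence by which p53 could recognise the genes measured below, and capitals mark the 20 bases of the pair.
Cdkn1a, 19 of 20 bases, chr17:29090908-29090967, plus strand: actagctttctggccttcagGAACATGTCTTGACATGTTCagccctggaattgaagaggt
Ccng1, 19 of 20 bases, chr11:40755442-40755501, minus strand: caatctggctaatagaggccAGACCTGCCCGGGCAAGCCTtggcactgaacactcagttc
Bbc3, 17 of 20 bases, chr7:16309466-16309525, plus strand: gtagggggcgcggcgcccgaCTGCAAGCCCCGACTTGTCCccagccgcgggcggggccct
Trp53, 17 of 20 bases, chr11:69580264-69580323, plus strand: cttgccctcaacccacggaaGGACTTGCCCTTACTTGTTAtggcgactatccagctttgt
The Cdkn1a element begins 51 bases before the upstream of the gene's 2 start sites in the table. In Ccng1 the pair begins 195 bases before the start site, and in Trp53 75 bases before the start. In Bbc3 it begins 97 bases before the first of the 3 RefSeq start sites with a window, which lies inside the gene span given below. The spacer rule and both limits were set after these windows had been read, a match is a description of letters only, and no binding was measured. The windows of Mdm2, Mdm4, Gadd45a, Bax and Sesn2 held no pair at this limit. Those of Mdm2, Gadd45a and Bax each held 1 full half-site. A full half-site was found in 6 of the 13 windows and in 8.36% of all windows. Sites outside the windows, or with a spacer, were not searched, so a gene without a pair here may still have an element.

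Assigned reads, recovered from FPKM (fragments normalised to gene length and to the depth of the library) and gene length, numbered 907210 to 1555431 per library. Principal component 1 of the 13443 genes tested held 28.7% of the variance and set C2 (score 49.7) and A2 (49.3) apart from the other 4 libraries (-32.7 to -11.1). Genes were tested where their mean was at least 1 FPKM, and all 13 listed markers of the 2-cell stage passed that filter, as did 9 of 10 oocyte markers. The 2-cell markers summed to 1956 (C1) and 1481 FPKM (C2), 2504 (B1) and 3181 FPKM (B2), and 1752 (A1) and 1260 FPKM (A2), so both B libraries had the highest sums. Single markers differed. Both B libraries lay above both C libraries for 5 of the 13, as in 14.8% of all genes tested. They lay above both A libraries for 7 of the 13, as in 18.8%. For Dppa2, B1 was the lowest library at 99.6 FPKM. The part of these markers in the values below was not tested. Of 9 sperm markers none passed and 5 had 0 reads in all libraries, and of 14 cumulus and granulosa cell markers 2 passed. Of 8 blood cell markers 3 passed, the 2 alpha-globin genes and Cd68, while Hbb-bs and Hbb-bt had 0 reads throughout. In bulk pools, fewer cells with a transcript and less of it per cell cannot be told apart.

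The levels of the 9 genes covered a wide range, with the p53 inhibitor Mdm4 at the top and the target Bbc3 at 0. Mdm4 was the highest of the 9 in 6 of 6 libraries, at 92.2 to 271 FPKM. Its mean ranked 398 among 13443 genes tested, and it held between 89.6% and 95.4% of all reads on the 9 genes. Mdm2 came second in 5 of 6 libraries at 17.3 to 27.2 FPKM, and Cdkn1a in the other, A1. Below these, the ranges overlapped and set no firm order. They were 2.24 to 18.1 FPKM for Gadd45a, 3.01 to 20.7 FPKM for Cdkn1a, 3.69 to 7.34 FPKM for Bax, 1.78 to 7.22 FPKM for Ccng1, 0.44 to 5.28 FPKM for Trp53 and 2.22 to 3.52 FPKM for Sesn2. Mdm4 stood at 39.1 to 208.5 times the level of Trp53 in the same library, and Mdm2 at 3.46 to 44.2 times. The highest ratio in both cases was in A2, where Trp53 rested on 2 reads.

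**Figure D1:**
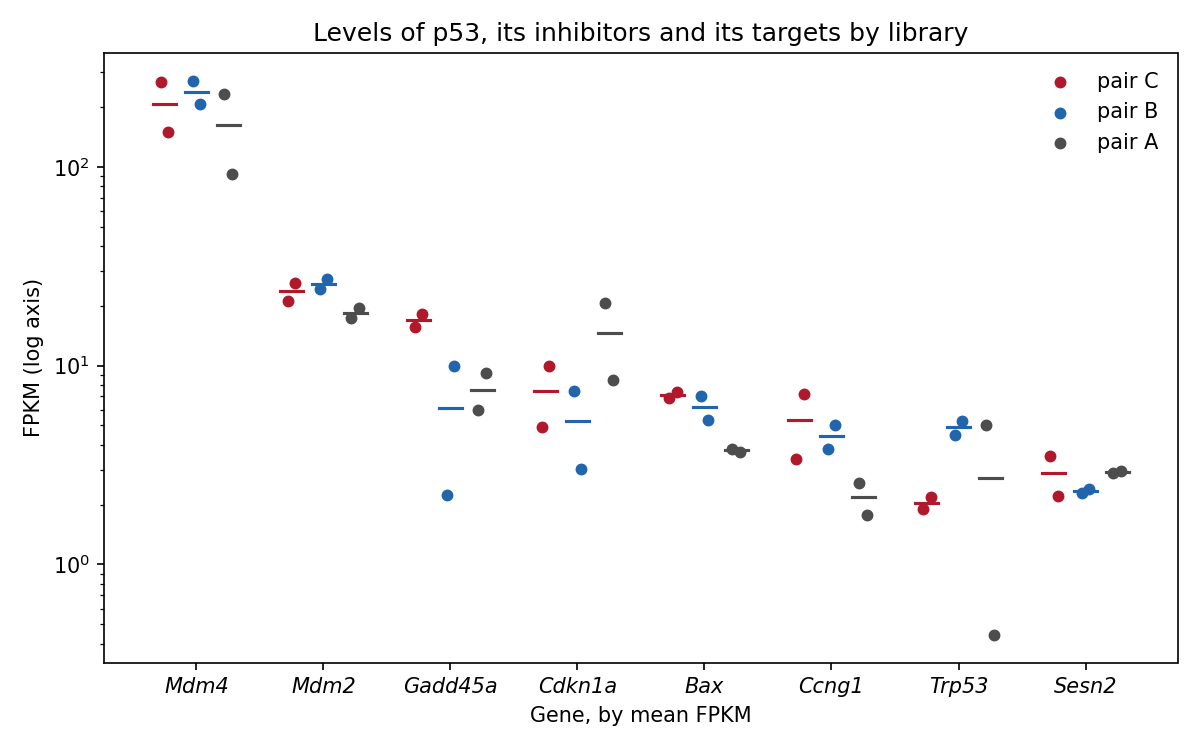
Level of each gene in FPKM (vertical log axis) for pairs C, B and A. Points are libraries and short bars are means of 2 libraries; Bbc3, with 0 reads in every library, is left off the log axis, and Mdm4 lies above every other gene in all 6 libraries.

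Trp53 lies on chromosome 11, plus strand, at 69580359 to 69591873 (mm10, as all gene coordinates here), with 4045 bases of exons. It measured 1.91 (C1) and 2.18 FPKM (C2), 4.50 (B1) and 5.28 FPKM (B2), and 5.01 (A1) and 0.44 FPKM (A2). Both C libraries lay below both B libraries, while the A libraries fell on either side of pair C. The log2 fold change of C against B was -0.95 ± 0.67 (SE), with a 95% interval of -2.52 to 0.62 and an adjusted p of 1 (limma). These levels rest on 12 and 8 reads in C, 23 and 25.5 in B, and 20.25 and 2 in A. The fractions in B2 and A1 come from shared reads, although no other gene measured overlaps the exons of Trp53. What shares them was not examined. The 2 reads of A2 have a two-sided exact Poisson interval of 0.24 to 7.22 reads (95%), or 0.054 to 1.60 FPKM. A1 has one of 3.07 to 7.71 FPKM, by a form that also takes fractional reads. Both intervals cover counting error only and not the spread between pools or PCR copies. The choice between A1 and A2 decides both comparisons with A. The log2 fold change of B against A was 1.00 ± 0.67 (SE), -0.03 without A2 and 2.03 without A1, and that of C against A was 0.05 ± 0.67 (SE), -0.98 without A2 and 1.08 without A1. Blood cell markers, mostly alpha-globin with both beta-globins at 0, summed to 31.3 (C1) and 12.6 FPKM (C2), 77.5 (B1) and 47.1 FPKM (B2), and 81.6 (A1) and 17.02 FPKM (A2). As for Trp53, both C libraries lay below both B libraries, and A2 below A1. Unlike Trp53, C1 lay above C2 and B1 above B2. The sums rest on 37 and 10.5 reads in C, 74 and 47 in B, and 62 and 16 in A. The part of these markers in the Trp53 values was not tested.

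Mdm2, on the minus strand of chromosome 10 at 117688875 to 117710758, was among the steadiest genes of the set, with 1.57 times between its lowest and highest library. Its level was 21.2 (C1) and 26.0 FPKM (C2), 24.4 (B1) and 27.2 FPKM (B2), and 17.3 (A1) and 19.5 FPKM (A2). All 4 libraries of C and B lay above both A libraries, by a small margin, and C and B overlapped. Within pairs its SD on the log2 scale was 0.15, and 5.01% of the genes tested had a lower one. Log2 fold changes were -0.13 ± 0.31 for C against B, 0.34 ± 0.31 for C against A and 0.46 ± 0.31 for B against A (SE). Their 95% intervals were -0.84 to 0.59, -0.38 to 1.06 and -0.25 to 1.18, which leaves room for differences of up to 2.27-fold in B against A. It rested on 88 to 168 reads per library.

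Mdm4 spans chromosome 1, minus strand, from 132959484 to 133030561, with 14798 bases of exons. The level was 266.9 (C1) and 148.9 FPKM (C2), 271 (B1) and 206.2 FPKM (B2), and 232.6 (A1) and 92.2 FPKM (A2). The lowest values belonged to A2 and C2, the libraries set apart on principal component 1, and the 3 pairs overlapped. The gene had 1525.5 to 6142 reads per library. They were fractional in 6 of 6 libraries, although no other gene measured overlaps its exons, and what shares reads with Mdm4 was not examined. Summed oocyte markers stood at 344 (C1) and 185 FPKM (C2), 322 (B1) and 262 FPKM (B2), and 303 (A1) and 239 FPKM (A2), so their sums too were lowest in C2 and A2. Single markers differed in A2. Zp3, with the highest mean of that list, was at its highest there, at 142 FPKM. Zp2, Nlrp5, Ooep and Padi6 were at their lowest in A2. The part of the oocyte markers in the Mdm4 values was not tested. The log2 fold change of B against A was 0.69 ± 0.49 (SE), 0.02 without A2 and 1.35 without A1, while C against A gave 0.44 ± 0.49 (SE), -0.22 without A2 and 1.10 without A1. For C against B it was -0.24 ± 0.49 (SE), and 0.17 without C2. Relative to Mdm2 in the same library, Mdm4 stood at 12.6 and 5.72 times in C1 and C2, 11.1 and 7.59 times in B1 and B2, and 13.4 and 4.72 times in A1 and A2. The ratio was lowest in A2 and C2.

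Among the targets that hold back the cell cycle, Cdkn1a encodes p21, which inhibits cyclin-dependent kinases. The gene lies on chromosome 17, plus strand, at 29090979 to 29100722, and its upstream promoter holds the near-complete p53 pair shown above. It measured 4.92 (C1) and 9.92 FPKM (C2), 7.47 (B1) and 3.01 FPKM (B2), and 20.7 (A1) and 8.45 FPKM (A2). A1 was the highest of the 6 libraries, and both B libraries lay below both A libraries, while C overlapped with B and with A. Reads numbered 17 and 20 in C, 21 and 8 in B, and 46 and 21 in A. The log2 fold change of B against A was -1.30 ± 0.58 (SE), with a 95% interval of -2.66 to 0.07 and an adjusted p of 0.991 (limma). Its unadjusted p was 0.0601, and 0.0447 after median scaling and 0.0480 after quantile normalization, with adjusted p of 0.999 and 0.986 (limma). The fold change ranged from -1.90 without A2 to -0.70 without A1. C against A gave -0.83 ± 0.58 (SE), and -0.23 without A1 and -1.43 without A2, and C against B gave 0.46 ± 0.58 (SE).

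Gadd45a, a growth arrest gene induced by DNA damage, was the single one of the 8 tested with an unadjusted p below 0.05 in the fit of all 6 libraries, in C against B, where 3.85% of all genes were below it. It lies on chromosome 6, minus strand, at 67035096 to 67037457. Its level was 15.6 (C1) and 18.1 FPKM (C2), 2.24 (B1) and 9.97 FPKM (B2), and 5.95 (A1) and 9.13 FPKM (A2). Both C libraries lay above the other 4, and B1 was the lowest with 5 reads. C against B had a log2 fold change of 1.58 ± 0.58 (SE), with a 95% interval of 0.21 to 2.95, an unadjusted p of 0.0292 and an adjusted p of 1 (limma), so it did not pass over the table. It was 0.70 without B1 and 2.46 without B2, and the unadjusted p stayed below 0.05 when B2 was left out but not when any other single library was. In a fit of only the pairs compared, the unadjusted p of Gadd45a was 0.0656 for C against B but 0.0305 for C against A, with an adjusted p of 1 in each (limma). C against A gave 1.09 ± 0.58 (SE), between 0.82 and 1.36 when single libraries were left out, and B against A gave -0.49 ± 0.58 (SE), turning to 0.39 without B1. An antisense gene, E230016M11Rik, overlaps 337 bases of Gadd45a exons and had 10.83 and 4 reads in C, 1 and 3 in B, and 0.5 and 2 in A. The handling of strand is not given in the sources used here, so reads in the overlap cannot be assigned with certainty to either gene.

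Its 2 paralogs were looked at beside it. Gadd45b measured 104.4 (C1) and 52 FPKM (C2), 21.4 (B1) and 49 FPKM (B2), and 69.8 (A1) and 49 FPKM (A2), and Gadd45g 12.6 (C1) and 5.64 FPKM (C2), 0 (B1) and 6.42 FPKM (B2), and 16.2 (A1) and 6.86 FPKM (A2). Library B1 was the lowest of the 6 for all 3 paralogs. For C against B the log2 fold change was 1.16 ± 0.50 for Gadd45b and 1.80 ± 0.92 for Gadd45g (SE), with an adjusted p of 1 for each (limma). Gadd45g rested on 23 and 6 reads in C and 0 and 9 in B, and its C and B pairs overlapped, with C2 below B2. It was picked once its values were known.

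**Figure D2:**
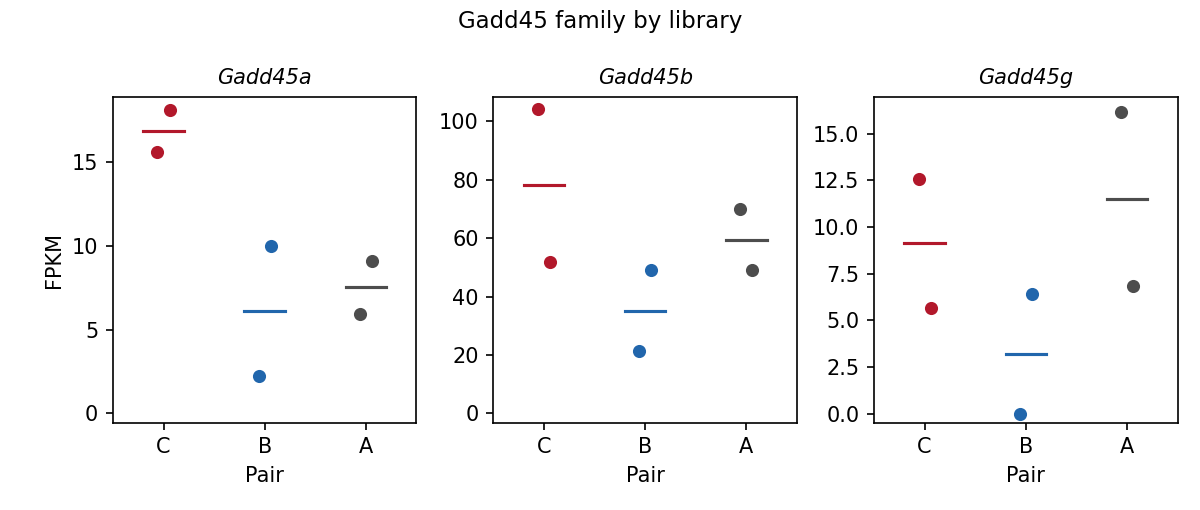
Levels of Gadd45a, Gadd45b and Gadd45g in FPKM (vertical axis, linear, a scale per gene) in pairs C, B and A. Points are libraries and bars are means of 2; the C libraries lie above the others for Gadd45a alone, and B1 is the lowest point in each panel.

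Ccng1, which encodes cyclin G1, a p53 target that acts back on Mdm2, lies on chromosome 11, minus strand, at 40748552 to 40755311. It measured 3.39 (C1) and 7.22 FPKM (C2), 3.83 (B1) and 5.01 FPKM (B2), and 2.56 (A1) and 1.78 FPKM (A2). Both A libraries were below the other 4, on 9 and 7 reads, against 18.5 and 23 reads in C and 17 and 21 in B. Log2 fold changes were 0.93 ± 0.45 for C against A, 0.77 ± 0.45 for B against A and 0.16 ± 0.45 for C against B (SE). For C against A it was 1.38 without C1 and 0.48 without C2.

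The apoptosis genes were represented by Bax alone, since Bbc3 was not detected. Bax, whose product opens the outer mitochondrial membrane, lies on chromosome 7, minus strand, at 45461697 to 45466898. Its level was 6.87 (C1) and 7.34 FPKM (C2), 7.02 (B1) and 5.31 FPKM (B2), and 3.81 (A1) and 3.69 FPKM (A2). The A libraries were again the lowest, with 6 and 6.5 reads, against 16.83 and 10.5 reads in C and 14 and 10 in B. The log2 fold change was 0.77 ± 0.35 for C against A (95% interval -0.06 to 1.60) and 0.58 ± 0.35 for B against A (SE), and 0.19 ± 0.35 for C against B. A gene on the same strand, Gm45808, shares 192 bases of Bax exons and had 7.5 and 2.5 reads in C, 4 and 2 in B, and 3 and 3.5 in A. Bbc3, which encodes the BH3-only protein PUMA, on chromosome 7 at 16308393 to 16318205, had 0 reads in all 6 libraries. A count of 0 allows up to 3 reads per library as a one-sided 95% limit, which is 0.91 FPKM in C1, the deepest, and 1.56 FPKM in C2, the shallowest, and no fold change was computed.

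Sesn2 encodes sestrin 2, a stress-induced regulator of growth signalling, on chromosome 4, minus strand, at 132492032 to 132510501. It measured 3.52 (C1) and 2.22 FPKM (C2), 2.28 (B1) and 2.41 FPKM (B2), and 2.88 (A1) and 2.96 FPKM (A2). Pairs C and A overlapped, as did C and B, and both B libraries lay just below both A libraries. Log2 fold changes stayed between -0.23 ± 0.41 (B against A) and 0.19 ± 0.41 (C against B, SE), on 7 to 19 reads per library.

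Across the table, C against B called 0 of 13443 genes (limma, 0% called, 3.85% at an unadjusted p below 0.05, and 0 called by limma-voom on recovered reads). Of the 8 p53 pathway genes tested 0 were called and 1, Gadd45a, was below 0.05 unadjusted, also by limma-voom. Pairs did not overlap for 2 of the 8, where 30.2% of all genes did not overlap. They were Gadd45a with C above B, as in 15.5% of all genes, and Trp53 with C below B, as in 14.8%. The median log2 fold change was 0.17 over the 8 and 0 over all genes.

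In C against A, 0 genes were called (limma and limma-voom, 0% called, 3.01% at an unadjusted p below 0.05), and 0 of the 8 were below 0.05 unadjusted by either method. Mdm2, Gadd45a, Ccng1 and Bax, 4 of the 8, had both C libraries above both A libraries, a pattern found in 16.5% of all genes tested. The opposite pattern was held by 0 of the 8 and by 10.4% of all genes, and either pattern by 26.9%. The median log2 fold change was 0.39 over the 8 and 0.06 over all genes.

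B against A again called 0 genes (limma and limma-voom, 0% called, 4.57% at an unadjusted p below 0.05), and 0 of the 8 were below 0.05 unadjusted by either method. Both B libraries lay above both A libraries for Mdm2, Ccng1 and Bax, 3 of the 8 against 18.8% of all genes, and below them for Cdkn1a and Sesn2, 2 of the 8 against 12.8%, with 31.7% of all genes in either pattern. The median log2 fold change was 0.52 over the 8 and 0.07 over all genes. The comparisons with A share its 2 libraries, so the low values of Mdm2, Ccng1 and Bax in pair A count in both.

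**Figure D3:**
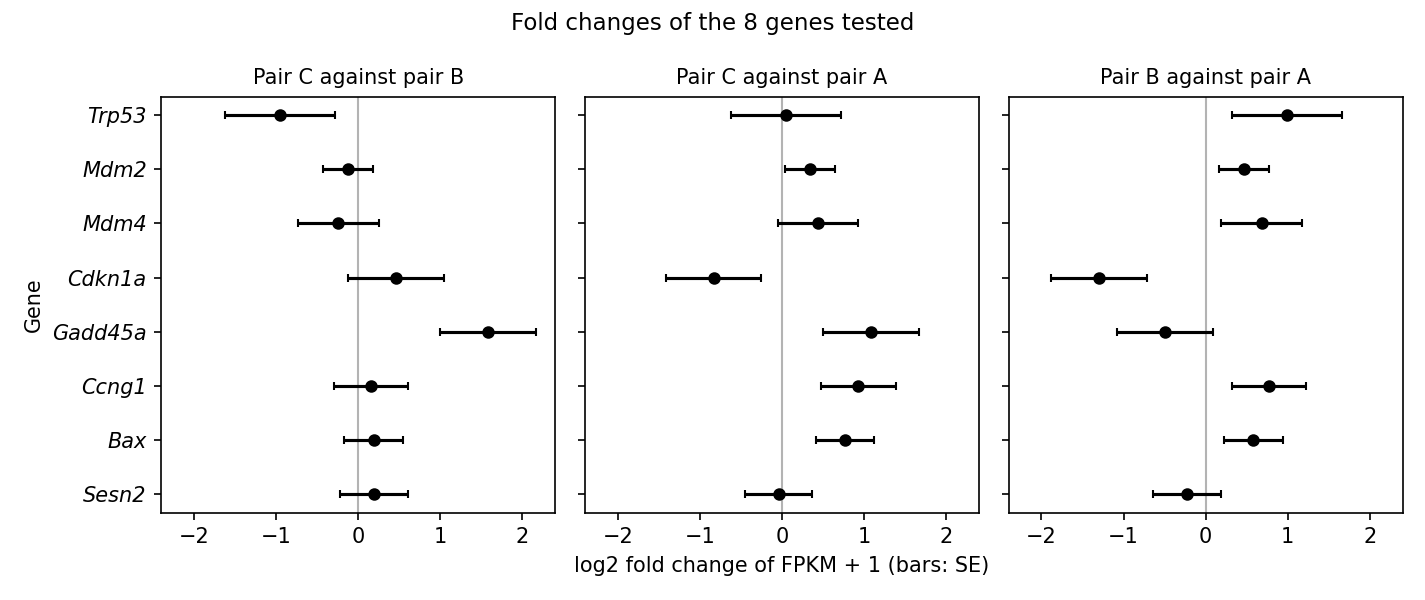
Log2 fold change of FPKM + 1 (horizontal axis) of the 8 genes tested, with the SE of the fit as bars, in the 3 comparisons. The bar of Gadd45a in C against B, at 1.58 ± 0.58, lies furthest from 0 in its panel, and no gene passed over the table.

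Other genes of the pathway were taken from 7 lists by role plus the p53 family, 110 genes in all, of which 75 passed the filter. None of the 75 was called in any comparison by limma. At an unadjusted p below 0.05 there was 1 in C against B, 1 in C against A and 0 in B against A. The shares of all genes tested were 3.85%, 3.01% and 4.57% in that order. Median log2 fold changes of the 75 were -0.06, 0.15 and 0.17 in the same order, against 0, 0.06 and 0.07 over all genes. The p53 relatives Trp63 and Trp73 stayed under the filter, at 0.11 to 0.46 FPKM and at 0 to 0.57 FPKM.

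Of 19 kinases and cofactors that activate p53, 15 were tested, and the DNA damage kinases Chek2 and Chek1 had the highest levels. Chek2 averaged 58.6 ± 9.57 in pair C, 52.6 ± 17.2 in pair B and 48.8 ± 7.84 in pair A, and Chek1 50.4 ± 18.1 in pair C, 46.6 ± 7.42 in pair B and 40.3 ± 10.6 in pair A (FPKM, SD, n = 2). The kinase Atm measured 11.7 to 21.4 FPKM, while Atr stayed under the filter at 0.05 to 0.44 FPKM. Atr was still detected in every library, on 15 and 9.5 reads in C, 1.5 and 9 in B, and 10.5 and 6 in A. Cdkn2a, whose product ARF restrains Mdm2, had 0 reads. The lowest unadjusted p of this list belonged to Rpl11, a ribosomal protein that binds Mdm2, with a log2 fold change of 0.37 ± 0.33 (SE) in C against B. Atm, Atr and Cdkn2a were picked once their values were known.

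Among inhibitors of p53, 13 of 14 were tested. The mitotic kinase Aurka averaged 152 ± 56.1 in pair C, 163.4 ± 74.8 in pair B and 93.2 ± 43.6 in pair A, and the deacetylase Sirt1 86.8 ± 31.7 in pair C, 91 ± 6.69 in pair B and 90.2 ± 27.4 in pair A (FPKM, SD, n = 2). Hdac1, another deacetylase, had 34.0 (C1) and 26.9 FPKM (C2), 43.2 (B1) and 50.5 FPKM (B2), and 37.2 (A1) and 33.4 FPKM (A2). Both C libraries lay below both B libraries, with a log2 fold change of -0.61 ± 0.30 (SE) and an adjusted p of 1 (limma).

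Targets that act in arrest gave 10 tested genes of 12. Ckap2, a spindle protein gene, had 111.7 (C1) and 85.4 FPKM (C2), 64.4 (B1) and 65.1 FPKM (B2), and 42.6 (A1) and 60.9 FPKM (A2). Both C libraries lay above the other 4, and C against A gave 0.92 ± 0.31 (SE), with an unadjusted p of 0.0204 and an adjusted p of 1 (limma). Of 18 further apoptosis targets 8 were tested. Siva1, a pro-apoptotic gene, averaged 92.4 ± 40.1 in pair C, 103.6 ± 17.1 in pair B and 97.2 ± 31.4 in pair A, and Trp53inp1, a stress-induced nuclear protein gene, 22.9 ± 0.54 in pair C, 23.9 ± 1.81 in pair B and 18.2 ± 3.42 in pair A (FPKM, SD, n = 2). The nuclease gene Aen had the lowest unadjusted p of that list, with 0.69 ± 0.47 (SE) in C against A.

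In the list of metabolic and repair targets 13 of 17 were tested, with Rps27l, a ribosomal protein gene, at 654.5 to 977.6 FPKM. Gpx1, glutathione peroxidase, measured 76.7 (C1) and 51.3 FPKM (C2), 209 (B1) and 113.9 FPKM (B2), and 122.1 (A1) and 61.5 FPKM (A2). Both C libraries lay below both B libraries, and C against B gave -1.29 ± 0.46 (SE), with an unadjusted p of 0.0249 and an adjusted p of 1 (limma).

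Of 17 BCL2 family genes besides Bax and Bbc3, 8 were tested and 4 had 0 reads throughout, among them Bak1, the partner of Bax. The family was dominated by Bcl2l10, an oocyte-rich member, at 398.7 (C1) and 132.8 FPKM (C2), 126.4 (B1) and 129 FPKM (B2), and 206.5 (A1) and 79.9 FPKM (A2). C1 was the highest of the 6 libraries, both C libraries lay above both B libraries, and pair C overlapped with A. The survival gene Mcl1 averaged 29.9 ± 3.32 in pair C, 33.5 ± 4.97 in pair B and 34.3 ± 6.68 in pair A (FPKM, SD, n = 2). Bcl2l14, the gene of this list with the lowest unadjusted p, had 11.2 (C1) and 11.4 FPKM (C2), 11.01 (B1) and 12.3 FPKM (B2), and 6.11 (A1) and 7.32 FPKM (A2). Both A libraries were the lowest, and B against A gave 0.72 ± 0.33 (SE) and an adjusted p of 0.991 (limma). Bak1 was picked once its values were known.

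The last list held the other CIP/KIP inhibitors with the kinases and cyclins that p21 binds, and 8 of 11 were tested. All 8 had a coefficient above 0 in C against A and in B against A, which share pair A, with medians of 0.41 and 0.56, and 3 of 8 did in C against B, with a median of -0.05. Over all genes tested 56.5% were above 0 for C against A, 55.1% for B against A and 49.9% for C against B. In B against A, 11 of 13 p53 inhibitors and 12 of 13 markers of the 2-cell stage were also above 0. The shares were lower in the other pathway lists. They were 10 of 15 kinases and cofactors, 8 of 13 metabolic and repair targets, 5 of 8 apoptosis targets, 4 of 8 BCL2 family genes and 4 of 10 arrest targets. Cdk1 averaged 195.2 ± 8.59 in pair C, 194.4 ± 31 in pair B and 173.3 ± 37.9 in pair A, and Ccna2, cyclin A2, 159.5 ± 39.8 in pair C, 151.2 ± 66.9 in pair B and 113 ± 26.4 in pair A (FPKM, SD, n = 2). Cdk4, a kinase partner of D-type cyclins, had 3.36 (C1) and 3.39 FPKM (C2), 6.08 (B1) and 4.64 FPKM (B2), and 3.08 (A1) and 1.93 FPKM (A2). It had the lowest unadjusted p of the list, with 0.87 ± 0.40 (SE) in B against A and an adjusted p of 0.991 (limma). Cdkn1b, which encodes p27, stayed under the filter, and was picked once its values were known.

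**Figure D4:**
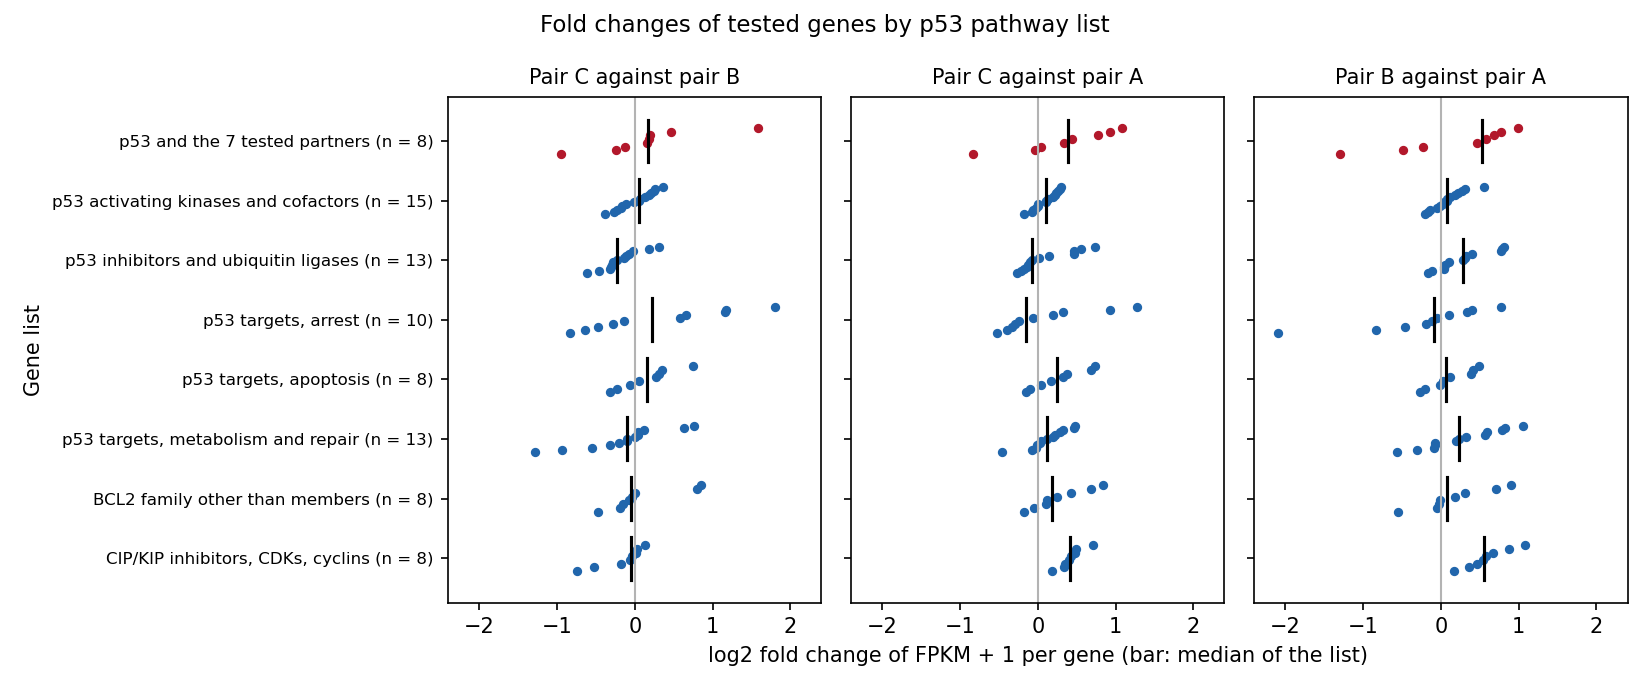
Log2 fold change of FPKM + 1 (horizontal axis) of each tested gene (points) by pathway list (rows), with the median of the list as a bar, in the 3 comparisons. Points of the last row lie above 0 in both comparisons with pair A, where 56.5% (C against A) and 55.1% (B against A) of all genes tested do, and on both sides of 0 in C against B.

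The genes with the pattern most like Trp53 over the 6 libraries, among 7086 with a mean of at least 5 FPKM, were Smu1 (Pearson r = 0.997), Wwp1 (0.991) and Gm364 (0.980). For Cdkn1a they were Cyp2c44 (0.987), Gm7846 (0.984) and Gm11273 (0.973). With 6 libraries such values are easily reached, since 70 genes had an r above 0.9 with Trp53 and 55 with Cdkn1a. Smu1 measured 170.2 (C1) and 174.1 FPKM (C2), 185.8 (B1) and 192.7 FPKM (B2), and 192 (A1) and 153.2 FPKM (A2), so its own range was much narrower than that of Trp53. The correlations are over libraries that share their preparation, and carry no test.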

How the data were processed

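RNA-seq of 6 pools of 5 embryos was analysed. FPKM values were made by the authors and deposited as 1 column per library with a gene length. The submitters' processing notes name mm10, Trimmomatic, Trim Galore, cutadapt, STAR and featureCounts, and strand handling is not given in the sources used here. Per the labels' protocols, cDNA had 13 PCR cycles, and the table holds 0 spike-in rows. Of the gene IDs, 99.8% are in GENCODE M21.

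FPKM times length is proportional to reads, and its commonest value was taken as 1 read. All values came out as multiples of 0.01 read (tolerance 0.0005 read), and 55.6% to 57.9% as whole reads (tolerance 0.001 read), so shared reads were counted as fractions. Depth was 907210 to 1555431 reads. Intervals and the floor of 3 reads cover counting error only.

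Log2(FPKM + 1) was fitted for 13443 genes averaging 1 FPKM or more, with 1 mean per pair over all 6 libraries, by limma 3.58.1 in R 4.3.3 (variance trend, Benjamini-Hochberg threshold 0.05 over all genes). Fold changes on this scale understate those of low genes. Since nothing says that pools came from separate matings, p-values measure the spread between pools, which may be technical.

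The genes and lists were chosen with earlier results of these data known. All 9 genes are described. From each list, genes that passed were to be named, otherwise the 1 with the lowest unadjusted p and the 2 with the highest mean. For Trp53 and Cdkn1a the 3 genes with the highest Pearson r were named. Alternatives were another pseudocount (0.1), other filters (none, 5 FPKM), median scaling, quantile normalization, no trend, only the pairs compared, the replicate number as a block, limma-voom on recovered reads, and leaving out each library.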

Additional observations from a re-analysis of the deposited data

How the results depend on the processing

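The count of the 8 tested p53 pathway genes called stayed at 0 in each comparison under all alternatives run, and that of all genes at 0 except with a pseudocount of 0.1, where C against B called 1, the pseudogene Igkv13-87. In settings that keep all compared libraries, the lowest adjusted p of these 8 genes was 0.891 (limma). Genes of the other pathway lists were part of the fits of all genes that passed the filter. Their fold changes under the alternatives are not given here. Of 24 fold changes in 9 alternatives that keep all compared libraries, 1 turned in sign, Trp53 in C against A, at -0.017 after quantile normalization. Under a filter at 5 FPKM, Trp53, Ccng1 and Sesn2 had no value.

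Leaving out a library turned 10 of the 24. In C against B the log2 fold changes ranged from -0.27 to 0.014 for Mdm2, -0.66 to 0.17 for Mdm4, -0.076 to 1.00 for Cdkn1a, -0.30 to 0.61 for Ccng1 and -0.053 to 0.43 for Sesn2. In C against A they ranged from -0.98 to 1.08 for Trp53, -0.22 to 1.10 for Mdm4 and -0.28 to 0.20 for Sesn2, and in B against A from -0.032 to 2.03 for Trp53 and -1.37 to 0.39 for Gadd45a. Other fold changes kept their sign but moved in size. In C against A they ranged from 0.82 to 1.36 for Gadd45a and 0.48 to 1.38 for Ccng1. In B against A they ranged from 0.02 to 1.35 for Mdm4 and -1.90 to -0.70 for Cdkn1a. The p-values of these fits are not listed here, since each fit leaves a pair with 1 library. A pair left with 1 library was assumed to vary like the others.

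Deviations of same-numbered libraries from their pair means correlated at 0.005 (C with B), 0.20 (C with A) and 0.098 (B with A), so the numbers were not taken as pairing. With the replicate block 0 genes were called in each comparison, and 671, 497 and 724 had an unadjusted p below 0.05 in C against B, C against A and B against A, against 518, 405 and 614 without it. Depth limits Trp53, Cdkn1a, Gadd45a, Ccng1, Bax and Sesn2, which rest on 2 to 8 reads in their lowest library.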
